A study of Mus musculus with 6 samples.

Results

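To describe genes of metal handling in macrophages with and without PP2Ac, 10 genes were taken from the RNA-Seq count table by symbol, of 55453 symbols in all. They encode the transferrin receptor (Tfrc), the transporters Slc11a1, Slc11a2, Slc39a14 and Slc40a1, the ferritin subunits Fth1 and Ftl1, lipocalin 2 (Lcn2) and the metallothioneins Mt1 and Mt2. All 10 symbols were found, and 9 of them had enough reads to be tested. The libraries were 3 of bone marrow-derived macrophages (BMDM) from LysMcre PP2Ac fl/fl mice, called PP2AcKO here, and 3 of BMDM from WT mice, called PP2AcWT, both on the strain C57BL/6. In the knockout, Cre is driven by the Lyz2 (LysM) promoter and removes the first exon of Ppp2ca, which encodes the catalytic subunit of the phosphatase PP2A, so deletion follows the myeloid cells that express Lyz2. By the study's methods, knockout mice came from the University of Michigan and WT mice from The Jackson Laboratory. Colony and Cre thus differ along with PP2Ac, and their effects cannot be told apart from its loss. The study's methods grow BMDM for a week in M-CSF or in medium conditioned by L929 fibroblasts and describe treating the sequenced cultures with cGAMP, the ligand of STING. The labels record neither the treatment nor the medium, the age of the mice, or whether the 3 libraries of a genotype came from separate animals. The p-values therefore measure the spread between these libraries, which may be technical.

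Macrophages take up iron as transferrin through Tfrc and as heme from engulfed red cells, hold it in ferritin, a shell of Fth1 and Ftl1 chains, and release it through ferroportin, the product of Slc40a1. Cells balance these steps after transcription: iron regulatory proteins bind a hairpin, the iron-responsive element, in the mRNA when iron is scarce. In the 5′ UTR of the ferritin and ferroportin mRNAs the bound hairpin blocks translation, and in the 3′ UTR of Tfrc mRNA it protects the mRNA from decay. RNA-Seq reads count mRNA and do not measure the translation step. Metallothioneins are small cysteine-rich proteins that hold zinc and copper, and their genes are switched on by the zinc-sensing factor MTF1 at metal response elements in their promoters.

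The iron-responsive hairpins of the members are shown because they are the sequence through which iron itself acts on these mRNAs. Whole transcripts of protein-coding genes in GENCODE M21 (GRCm38), coding sequence as well as UTRs, were searched for a hairpin pattern. It was a C, any 5 bases, the loop CAGTGN and 5 bases able to pair with those before the loop, G-T pairs allowed. The search matched 301 of 22500 protein-coding genes (1.34%) anywhere in a transcript, and 4 of the 10 members, Fth1, Ftl1, Slc40a1 and Tfrc. Each run below is 29 bases, 5′ to 3′ on the strand of the gene, with the bulged C and the loop in capitals. The ferritin and ferroportin hairpins lie in 5′ UTR exons at chr19:9982732-9982760 on the plus strand (Fth1), chr7:45459779-45459807 on the minus strand (Ftl1) and chr1:45925465-45925493 on the minus strand (Slc40a1). The 4 Tfrc hairpins that matched lie in the 3′ UTR on the plus strand at chr16:32631219-32631247, chr16:32631598-32631626, chr16:32631663-32631691 and chr16:32631710-32631738, in the order given. Elements that depart from the pattern would be missed here. Both ferritin genes have the same bases in the stem arm between the bulge and the loop, whereas no 2 of the 4 Tfrc hairpins share that arm.
Fth1: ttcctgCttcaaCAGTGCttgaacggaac
Ftl1: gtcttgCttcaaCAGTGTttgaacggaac
Slc40a1: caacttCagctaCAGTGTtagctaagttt
Tfrc hairpin 1: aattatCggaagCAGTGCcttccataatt
Tfrc hairpin 2: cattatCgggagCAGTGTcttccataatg
Tfrc hairpin 3: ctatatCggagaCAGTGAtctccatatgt
Tfrc hairpin 4: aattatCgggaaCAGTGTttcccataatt

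The libraries held 35257156 to 47390899 counted reads, so that 3 counts, taken as the floor of detection, correspond to 0.0604 to 0.0909 CPM (counts scaled to a common library size, here with TMM factors). The targeted gene went with the labels: Ppp2ca had 33 to 47 counts in PP2AcKO libraries and 8279 to 10654 in PP2AcWT libraries, a log2 fold change of -7.67 (adjusted p = 3.17e-10). Macrophage markers were present in every library, with summed levels of 7294 to 7483 CPM in PP2AcKO and 6170 to 6801 CPM in PP2AcWT, and 2 of 7 were higher in PP2AcKO. Lyz2, which has a close paralog in Lyz1, was the lowest of the 7 at 260 to 421 counts. Of 14 genes of cycling cells 12 were lower in PP2AcKO, with summed levels of 306 to 326 CPM against 404 to 482 CPM, and all 4 fibroblast collagen and matrix genes were lower, with 22.7 to 33.4 CPM against 74.9 to 117.7 CPM. Neutrophil markers summed to 0.9996 to 1.06 CPM in PP2AcKO and 0.805 to 1.17 CPM in PP2AcWT, and Ly6g and Retnlg were at 0 in every library. Erythroid markers summed to 2.00 to 2.61 CPM against 1.29 to 1.57 CPM, with Alas2 at 0. Of the 9 erythroid genes 7 had at most 7 counts in any library, and Ermap, the 1 gene of the list that was higher (log2 fold change 0.87, adjusted p = 0.00755), made up most of the sum at 1.89 CPM against 1.03 CPM on average. In bulk RNA, fewer cells of a type and less RNA per cell cannot be told apart.

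Of the 9 genes tested, Tfrc was lower in PP2AcKO BMDM and none was higher by edgeR's quasi-likelihood test at a Benjamini-Hochberg adjusted p under 0.05. Of all 13680 genes tested, 18.1% were higher and 19% lower by the same rule. At an unadjusted p under 0.05 the members gave 0 higher and 3 lower (Tfrc, Slc39a14 and Mt2). The share of all genes lower at that threshold was not counted, so these 3 of 9 have no matched background. That share is at least the 19% that were lower after adjustment. DESeq2 and limma-voom each called 0 members higher and 1 lower after adjustment. Over all genes DESeq2 called 2597 higher and 2280 lower, and limma-voom 2485 and 2571. The median log2 fold change of the 9 was -0.18, beside -0.024 over all genes tested. The libraries of the 2 genotypes did not overlap for 2 of the 9, Tfrc and Slc39a14, beside 50.9% of all genes tested. The 2 genotypes carry the same replicate numbers, and same-numbered libraries deviated together, so a fit with the number as a block was also made. The labels do not say what libraries of 1 number share, and differently numbered libraries were not compared in this way. Calls of the block fit hold only if the numbers mark real pairs. In that fit 6 of the 9 were lower (Tfrc, Slc40a1, Slc39a14, Ftl1, Mt1 and Mt2) and 0 higher, beside 26.4% of all genes lower and 24.4% higher. Those same 6 genes were lower in PP2AcKO in 3 of 3 same-numbered pairs, as were 37.6% of all genes tested, while 33.2% were higher in 3 of 3.

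**Figure D1:**
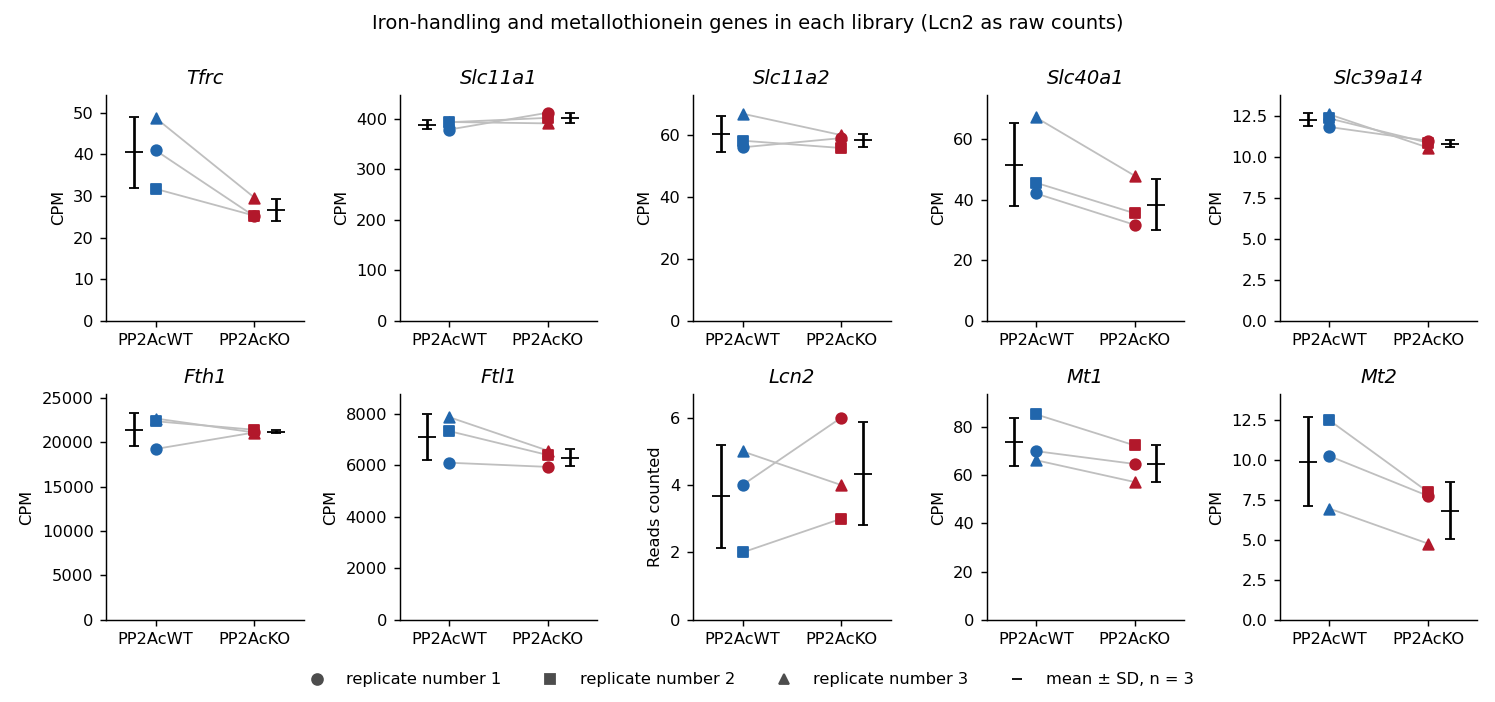
Level of the 10 genes in each library, in CPM on linear axes from 0 (raw read counts for Lcn2). Grey lines join PP2AcWT and PP2AcKO libraries with the same replicate number, and black marks give the mean ± SD of 3. Tfrc and Slc39a14 separate the genotypes, while Slc40a1 and Mt2 overlap between them although every line slopes down.

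Tfrc, the receptor that carries transferrin-bound iron into cells (chr16:32608920-32632794, plus strand), had 25.1, 25.3 and 29.6 CPM in PP2AcKO replicates 1, 2 and 3 and 41.0, 31.7 and 48.8 CPM in PP2AcWT. Every PP2AcKO library was below every PP2AcWT library, and the PP2AcWT libraries were spread more widely. The means were 26.7 ± 2.55 and 40.5 ± 8.54 CPM (SD, n = 3). The log2 fold change was -0.60 (SE 0.14, adjusted p = 0.00881), or 0.659 times the PP2AcWT level. Within same-numbered pairs the log2 ratios were -0.71, -0.33 and -0.72. By the pattern searched, it was the one member with matches in its 3′ UTR, shown above. The pattern is strict, and an iron-responsive element is also known in the 3′ UTR of one Slc11a2 isoform, which it did not match. Its transcripts had no 50-base window shared with another annotated gene. Tfrc is also known as a gene that proliferating cells express highly, and the cycling-cell and fibroblast lists given above were lower in the same 3 libraries. Their part in the Tfrc result was not tested.

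Slc40a1 encodes ferroportin, the only known exporter of iron from cells (chr1:45908068-45926523, minus strand). Its level was 31.7, 35.6 and 48.0 CPM in PP2AcKO replicates 1, 2 and 3 and 42.1, 45.7 and 67.3 CPM in PP2AcWT. Replicate 3 was the highest library of each genotype, and the groups overlapped. The means of 38.4 ± 8.49 and 51.7 ± 13.6 CPM (SD, n = 3) gave a log2 fold change of -0.43 (SE 0.19), which did not pass the test (edgeR adjusted p = 0.112). It passed with the replicate block (log2 fold change -0.42, SE 0.045, adjusted p = 1.66e-05), the 3 pair ratios being -0.41, -0.36 and -0.49 on the log2 scale. Without the block, Slc40a1 also passed when PP2AcKO replicate 3 was left out (log2 fold change -0.62, adjusted p = 0.0415) or PP2AcWT replicate 1 was (-0.55, adjusted p = 0.0433). In the other direction, without PP2AcWT replicate 3 the log2 fold change was -0.19 (adjusted p = 0.369), and without PP2AcKO replicate 1 it was -0.31 (adjusted p = 0.309).

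Slc39a14 (ZIP14), an importer of zinc, manganese and iron not bound to transferrin (chr14:70303469-70351425, minus strand), was read at 11.0, 10.8 and 10.5 CPM in PP2AcKO and 11.8, 12.3 and 12.6 CPM in PP2AcWT. The groups did not overlap, but the gap between them was small. Means were 10.8 ± 0.215 and 12.2 ± 0.396 CPM (SD, n = 3), with a log2 fold change of -0.18 (SE 0.072, edgeR adjusted p = 0.0782). It passed with the replicate block (adjusted p = 0.0428) and with upper-quartile scaling (adjusted p = 0.0345), but not with the block under RLE scaling (adjusted p = 0.0722) or in DESeq2 with the block (adjusted p = 0.295), and the call of the block fit was lost without both libraries of number 2 (adjusted p = 0.17) or 3 (adjusted p = 0.231).

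The NRAMP transporters, which move iron and manganese out of phagosomes and endosomes, did not pass the test in either fit. Slc11a1 (NRAMP1), the phagosomal transporter of macrophages (chr1:74375195-74386062, plus strand), stood at 412, 402 and 391 CPM in PP2AcKO and 379, 393 and 394 CPM in PP2AcWT. These reads measure its mRNA and do not show whether C57BL/6 cells make a working protein from it. The ranges overlapped within a narrow band, with a log2 fold change of 0.05 (SE 0.062, edgeR adjusted p = 0.58), whose sign turned to -0.016 under upper-quartile scaling. Slc11a2 (DMT1), which releases transferrin-borne iron from endosomes (chr15:100387898-100425072, minus strand), had 59.1, 55.9 and 60.1 CPM in PP2AcKO and 56.1, 58.3 and 67.0 CPM in PP2AcWT. Its log2 fold change was -0.05 (SE 0.076, edgeR adjusted p = 0.64), and it was 0.031 without PP2AcWT replicate 3, the highest of the 6 libraries.

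**Figure D2:**
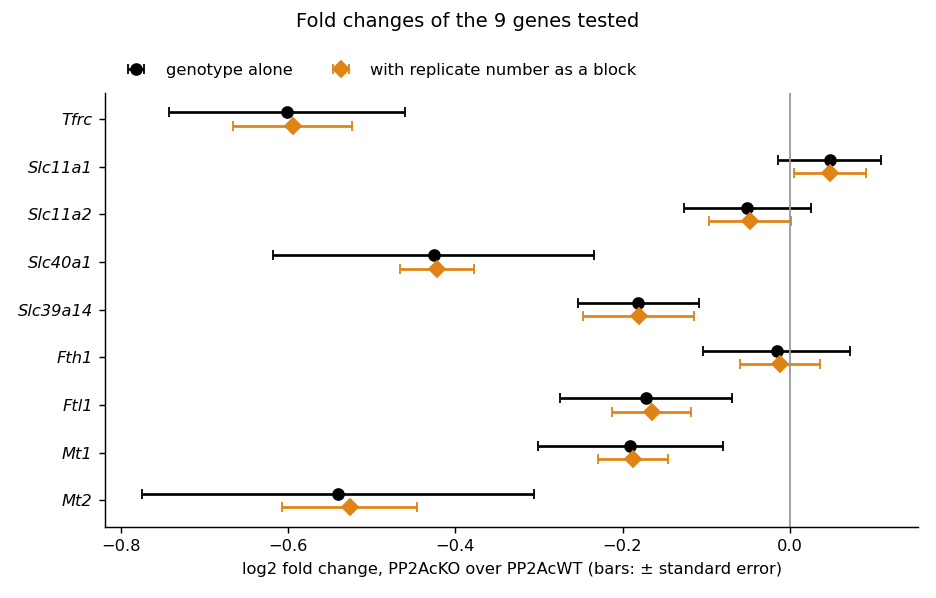
Log2 fold change of PP2AcKO over PP2AcWT for the 9 genes tested, from the edgeR fits without (black circles) and with (orange diamonds) the replicate block, with bars of ± 1 standard error. The estimates hardly move between the fits, and the standard error of Slc40a1 shrinks from 0.19 to 0.045 and that of Mt2 from 0.23 to 0.080.

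The ferritin genes were among the most abundant transcripts of these cells. Fth1 is the heavy chain that oxidizes iron for storage (chr19:9980598-9985098, plus strand). It ranked first of all genes in the 3 PP2AcWT libraries and second in the 3 PP2AcKO libraries. Its share of all counted reads was 1.92% to 2.00% in PP2AcKO and 2.02% to 2.49% in PP2AcWT, without overlap. The TMM factors were 0.91 to 0.94 in PP2AcKO and 1.05 to 1.10 in PP2AcWT, so the scaling raises PP2AcKO levels relative to PP2AcWT. In CPM, Fth1 was at 21100, 21400 and 21090 in PP2AcKO and 19240, 22360 and 22670 in PP2AcWT. On that scale all PP2AcKO values lay inside the PP2AcWT range. The log2 fold change was -0.02 (SE 0.088, edgeR adjusted p = 0.907), and its sign turned under RLE scaling (0.00696).

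Ftl1, the light chain that nucleates the iron core (chr7:45457944-45459884, minus strand), was at 5940, 6400 and 6571 CPM in PP2AcKO and 6102, 7332 and 7874 CPM in PP2AcWT. In CPM the groups overlapped through PP2AcWT replicate 1, which was below 2 of the 3 PP2AcKO libraries. As shares of all counted reads, before TMM factors, they did not, at 0.540% to 0.616% in PP2AcKO and 0.640% to 0.863% in PP2AcWT. The means of 6304 ± 326 and 7103 ± 908 CPM (SD, n = 3) gave a log2 fold change of -0.17 (SE 0.10, edgeR adjusted p = 0.223). It passed with the replicate block (log2 fold change -0.17, SE 0.047, adjusted p = 0.0135) and, without the block, when PP2AcWT replicate 1 was left out (log2 fold change -0.27, adjusted p = 0.0215). Without PP2AcWT replicate 3 the log2 fold change was -0.09 (adjusted p = 0.539), and the call of the block fit was lost without both libraries of number 2 (adjusted p = 0.166) or 3 (adjusted p = 0.152). The pair ratios were -0.04, -0.20 and -0.26 on the log2 scale, the first being close to 0. Of the 50-base windows in Ftl1 transcripts, 58.4% also occur in another annotated gene, and 47.3% in the pseudogene Ftl1-ps1, which had 521 to 853 counts per library. How the counting treated reads that map to several places is not given in the sources used here, so the Ftl1 level is uncertain to that extent. For Fth1 the shared windows were 1.59%, all with Gm6977, which had 210 to 288 counts.

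The count ratio of Fth1 to Ftl1 was 3.55, 3.343 and 3.21 in PP2AcKO and 3.15, 3.05 and 2.88 in PP2AcWT. Each PP2AcKO ratio was above each PP2AcWT ratio. The means of 3.37 ± 0.172 and 3.03 ± 0.138 (SD, n = 3) gave p = 0.1 in a 2-sided exact permutation test over 20 splits, which is the smallest p that 3 against 3 libraries allow.

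Lcn2, which binds bacterial siderophores and so withholds iron from microbes (chr2:32384633-32388252, minus strand), was barely detected. It had 6, 3 and 4 counts in PP2AcKO and 4, 2 and 5 counts in PP2AcWT, of 35257156 or more reads in each library, and was below the filter on low counts. The ranges overlapped and a difference was not detectable at this depth. The neutrophil markers given above, a cell type that stores Lcn2 protein in its granules, were near 0 as well.

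Mt1 and Mt2 are neighbours on chr8, with Mt2 at chr8:94172664-94173568 and Mt1 at chr8:94179082-94180327, both on the plus strand and 5513 bases apart. Sequence before 1 annotated start of each is shown because MTF1 acts in their promoters. Each run is the 250 bases before the RefSeq start (GRCm38.p6, plus strand), at chr8:94178839-94179088 for Mt1 and chr8:94172368-94172617 for Mt2, with matches to the core of the metal response element, TGCGCNC or TGCACNC on either strand, in capitals. Over the whole window of 300 bases, which runs on past the start, Mt1 held 3 matches (1 before the start) and Mt2 held 4 (3 before the start). Of 32851 promoters of that length in the table, 25.7% held at least 1 match and 1.97% at least 3. GENCODE lists further Mt1 starts 122 and 152 bases downstream of the RefSeq start, and Mt2 starts 46 and 242 bases downstream. Sequence before those starts is only partly in the windows. The matches past the RefSeq start, at 2 and 20 in Mt1 and 4 in Mt2, lie before those later starts. Counts of matches before the start, here 1 for Mt1 and 3 for Mt2, thus depend on the start chosen. Of the other members, 5 were in the promoter table, and Tfrc alone had matches to the metal response core, 2 that overlap on opposite strands.
Mt1 upstream: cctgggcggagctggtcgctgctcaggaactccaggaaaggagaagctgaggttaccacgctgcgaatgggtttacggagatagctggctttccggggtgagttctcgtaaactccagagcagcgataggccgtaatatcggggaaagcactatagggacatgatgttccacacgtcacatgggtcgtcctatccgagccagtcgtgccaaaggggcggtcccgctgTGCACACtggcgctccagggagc
Mt2 upstream: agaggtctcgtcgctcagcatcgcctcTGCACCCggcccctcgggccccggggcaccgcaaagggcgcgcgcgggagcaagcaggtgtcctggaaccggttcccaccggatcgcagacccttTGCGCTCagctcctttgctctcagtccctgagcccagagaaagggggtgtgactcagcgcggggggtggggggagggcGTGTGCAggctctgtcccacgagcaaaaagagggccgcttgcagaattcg

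Mt1 was the more abundant metallothionein, at 64.7, 72.4 and 57.2 CPM in PP2AcKO replicates 1, 2 and 3 and 70.0, 85.3 and 66.3 CPM in PP2AcWT. Replicate 2 was the highest and replicate 3 the lowest library of each genotype, and the groups overlapped. The means of 64.8 ± 7.60 and 73.9 ± 10.1 CPM (SD, n = 3) gave a log2 fold change of -0.19 (SE 0.11, edgeR adjusted p = 0.211). With the replicate block it passed (log2 fold change -0.19, SE 0.042, adjusted p = 0.00353), with pair ratios of -0.11, -0.24 and -0.21 on the log2 scale, and this call was lost without both libraries of number 2 (adjusted p = 0.0782). Without the block, the log2 fold change was -0.073 when PP2AcWT replicate 2 was left out and -0.11 when PP2AcKO replicate 3 was.

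Mt2 had 7.76, 7.997 and 4.77 CPM in PP2AcKO replicates 1, 2 and 3 and 10.3, 12.5 and 6.97 CPM in PP2AcWT. Here too replicate 2 was the highest and replicate 3 the lowest library of each genotype, and PP2AcWT replicate 3 lay among the PP2AcKO values. Means were 6.84 ± 1.80 and 9.90 ± 2.78 CPM (SD, n = 3), with a log2 fold change of -0.54 (SE 0.23, edgeR adjusted p = 0.101). It passed with the replicate block (log2 fold change -0.53, SE 0.080, adjusted p = 2.59e-04), the pair ratios being -0.40, -0.64 and -0.55 on the log2 scale, and without the block when PP2AcWT replicate 3 was left out (log2 fold change -0.74, adjusted p = 0.0156). Without PP2AcKO replicate 3 the log2 fold change was -0.33 (adjusted p = 0.279), and without PP2AcWT replicate 2 it was -0.34 (adjusted p = 0.333). An antisense gene, Gm45774, shares 45.8% of the 50-base windows of Mt2 and had at most 1 count.

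The count ratio of Mt1 to Mt2 was 8.34, 9.05 and 11.99 in PP2AcKO and 6.84, 6.83 and 9.51 in PP2AcWT. The groups overlapped and replicate 3 was the highest of each, while the ratio was higher in PP2AcKO in 3 of 3 same-numbered pairs. The means of 9.80 ± 1.94 and 7.73 ± 1.55 (SD, n = 3) gave p = 0.3 in the 2-sided exact permutation test, which does not use the pairing.

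Per length of the principal transcript, Fth1 stood first in PP2AcWT BMDM at 23060 CPM per kb and Ftl1 second at 7338 CPM per kb. Slc11a1 followed at 167.8 ± 3.71 and Mt1 at 134.6 ± 18.4 CPM per kb (SD, n = 3), with no overlap between their libraries. Slc11a2 at 20 ± 1.91, Mt2 at 19.4 ± 5.43 and Slc40a1 at 15.3 ± 4.04 CPM per kb lay within each other's spread. Tfrc at 8.28 ± 1.75 and Slc39a14 at 5.83 ± 0.189 CPM per kb came next, and Lcn2 was last at 0.0895 ± 0.0401 CPM per kb, from at most 6 reads. The order was the same in PP2AcKO. With the merged exons of all transcripts as the length instead, Slc11a2 and Mt2 changed places, as did Slc40a1 and Tfrc.

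**Figure D3:**
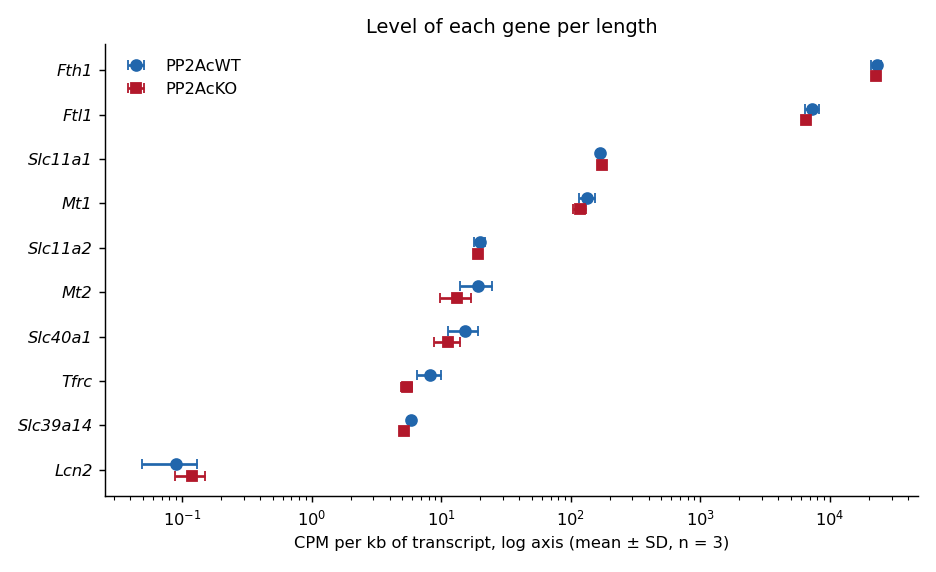
Level of each gene in CPM per kb of its principal transcript, on a log axis, as mean ± SD of 3 libraries for PP2AcWT (blue circles) and PP2AcKO (red squares). Levels run from 0.0895 (Lcn2, at most 6 reads per library) to 23060 CPM per kb (Fth1) in PP2AcWT, and the genotypes lie close together beside that range.

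A list of 81 other genes of iron, heme and zinc handling was set beside the members. Of these, 80 were in the table and 61 were tested, with 10 higher (16.4%) and 9 lower (14.8%) in PP2AcKO, beside the background of 18.1% and 19% given above, and a median log2 fold change of -0.042. With the replicate block, 14 were higher and 12 lower, beside 24.4% and 26.4% of all genes tested. The counts of the small groups below are to be read beside these same shares. Under upper-quartile scaling the split was 7 higher and 11 lower. Of 8 systemic iron genes in the table, 4 had at most 3 counts in all libraries, hepcidin (Hamp) having at most 1 in any. Another 2 of the 8 had enough reads to be tested. In the whole list, 13 genes had at most 3 counts in all libraries.

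Among the 3 genes of the iron regulatory proteins and their control, 1 was lower. Aco1, which encodes iron regulatory protein 1 and serves as cytosolic aconitase when it carries an iron-sulfur cluster, had 42.7, 44.1 and 46.5 CPM in PP2AcKO and 57.1, 59.7 and 63.6 CPM in PP2AcWT. The groups were apart, with a log2 fold change of -0.44 (SE 0.064, adjusted p = 8.46e-04). Ireb2, which encodes iron regulatory protein 2, had 64.5 to 69.1 CPM in PP2AcKO and 60.9 to 70.8 CPM in PP2AcWT (log2 fold change 0.03, adjusted p = 0.776), and its sign turned under upper-quartile scaling (-0.033). By genotype alone, none of 4 genes of ferritin turnover and iron chaperones and neither of the 2 systemic genes tested passed, nor did the 1 lipocalin receptor tested. With the replicate block 2 of those 4 were higher, both named after their values were seen. These were Pcbp1, a chaperone that delivers iron to ferritin (log2 fold change 0.18, adjusted p = 0.00799 with the block and 0.0536 without), and Bdh2 (0.51, adjusted p = 0.0113 with the block and 0.0877 without).

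Of 6 metalloreductases and ferroxidases tested, 1 was higher and 2 lower. Cp, the ferroxidase ceruloplasmin that works with ferroportin, was at 12.7, 9.75 and 8.68 CPM in PP2AcKO and 5.15, 4.09 and 2.34 CPM in PP2AcWT. No PP2AcKO library was as low as any PP2AcWT library, and the log2 fold change was 1.42 (SE 0.25, adjusted p = 0.00191). Steap3, an endosomal ferrireductase of the transferrin cycle, named after its values were seen, was lower at 23.1, 26.2 and 28.5 CPM against 40.5, 41.0 and 45.0 CPM (log2 fold change -0.70, SE 0.085, adjusted p = 3.34e-04). Steap2 was lower by a log2 fold change of -1.34 (SE 0.28, adjusted p = 0.00525) from levels under 1 CPM in every library.

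Heme uptake, breakdown and export had 3 genes higher and 2 lower of 11 tested, and 4 higher and 5 lower with the replicate block. Flvcr1, a heme and choline transporter, was at 58.5, 55.5 and 63.3 CPM in PP2AcKO and 95.4, 97.2 and 108.1 CPM in PP2AcWT (log2 fold change -0.76, SE 0.074, adjusted p = 1.34e-04). Hmox2, the constitutive heme oxygenase, was higher at 254.9 to 270.0 CPM against 174.4 to 209.9 CPM (log2 fold change 0.47, SE 0.079, adjusted p = 0.00165). Hmox1, the inducible heme oxygenase, had 111.8, 118.4 and 128.1 CPM in PP2AcKO and 128.0, 139.7 and 186.7 CPM in PP2AcWT. Its groups overlapped in 1 library each, and its log2 fold change of -0.34 (SE 0.13) did not pass by genotype alone (adjusted p = 0.0643) but did with the replicate block (adjusted p = 0.00125). Without the block it passed under upper-quartile scaling (adjusted p = 0.0346), with no filter (0.00142), in DESeq2 (0.0496) and without PP2AcWT replicate 1 (0.0124), whereas without PP2AcWT replicate 3 the log2 fold change was -0.16 (adjusted p = 0.174). Among the heme synthesis genes, none was higher, and Alad, the second enzyme of the path, was lower (log2 fold change -0.39, adjusted p = 0.0163), a call lost without PP2AcKO replicate 1 (adjusted p = 0.0627) or PP2AcWT replicate 3 (adjusted p = 0.0573).

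Both mitoferrins, which bring iron into mitochondria, were higher. Slc25a28 had 86.1 to 103.5 CPM in PP2AcKO and 56.2 to 63.5 CPM in PP2AcWT (log2 fold change 0.68, SE 0.081, adjusted p = 3.18e-04), and Slc25a37 had 69.1 to 84.3 CPM against 47.5 to 56.1 CPM (log2 fold change 0.59, SE 0.091, adjusted p = 0.00106). In all, 3 of 8 mitochondrial and lysosomal iron genes were higher and 1 lower.

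Among zinc transporters, 1 of 11 ZIP importers was higher (2 with the replicate block) and 1 lower, and 2 of 6 ZnT exporters were higher and 0 lower. Slc39a4 was higher at 14.5, 11.9 and 9.39 CPM against 6.74, 7.17 and 4.56 CPM (log2 fold change 0.95, SE 0.19, adjusted p = 0.0043), and Slc39a10 was lower (log2 fold change -0.38, adjusted p = 0.00173). Slc30a1, the exporter of the plasma membrane and, like Mt1 and Mt2, a known target of MTF1, was at 377.5, 355.1 and 339.3 CPM in PP2AcKO and 327.8, 264.1 and 251.1 CPM in PP2AcWT. Its groups did not overlap, and it was higher by a log2 fold change of 0.35 (SE 0.10, adjusted p = 0.0254). This call was lost when PP2AcKO replicate 1 (adjusted p = 0.0833) or 2 (0.0638), or PP2AcWT replicate 2 (0.0979) or 3 (0.0691), was left out. Slc30a7, an exporter into the Golgi, was higher by 0.18 on the log2 scale (adjusted p = 0.0226), but this call was lost under upper-quartile scaling (adjusted p = 0.105), with no filter on low counts (adjusted p = 0.0975) and when any library but PP2AcWT replicate 1 was left out (adjusted p from 0.0527 to 0.0802). Mtf1 itself had a log2 fold change of -0.06 (SE 0.072, adjusted p = 0.526). Mt3 and Mt4, the metallothioneins of brain and squamous epithelium, had at most 2 counts in any library.

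**Figure D4:**
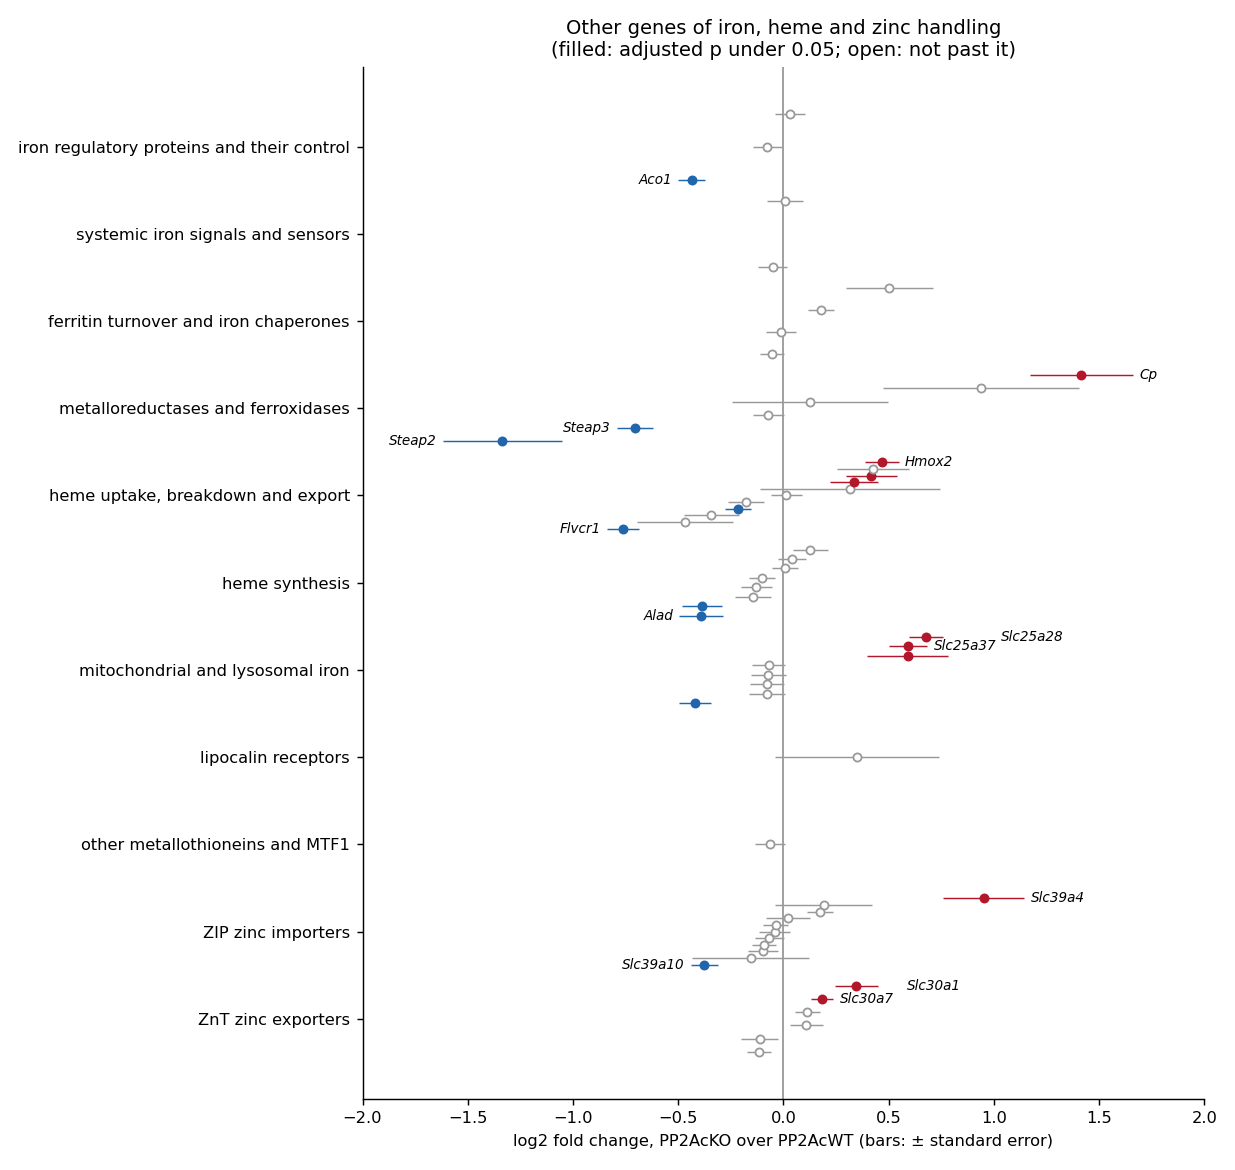
Log2 fold change of PP2AcKO over PP2AcWT for the 61 other genes of iron, heme and zinc handling that were tested, grouped by function, with bars of ± 1 standard error. Filled points passed an adjusted p of 0.05 (red higher, blue lower) and open points did not, and 10 filled points lie to the right of 0 and 9 to the left.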

How the data were processed

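Poly(A) RNA of 3 PP2AcKO and 3 PP2AcWT BMDM cultures was sequenced with a directional kit. The authors deposited 1 table of raw read counts per gene symbol, without normalization. The submitters' processing notes name fastp 0.20.0, kallisto 0.46.1, STAR 2.7.1a, HTSeq 0.11.2, edgeR 3.34.0 and limma 3.48.3 with the builds mm10 and GRCm38. The strand setting and the handling of multi-mapping reads are not given in the sources used here.

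Genotypes and replicate numbers came from the sample titles. In R 4.3.3, edgeR 4.0.16 (filterByExpr with a minimum count of 10 and total of 15, TMM, glmQLFit and glmQLFTest, genotype alone) was run on 13680 genes, with Benjamini-Hochberg adjustment over all of them and a threshold of 0.05. The script was tested on simulated data. Both genotypes carry the replicate numbers 1, 2 and 3 in their titles. Deviations from the group means correlated between same-numbered libraries (0.289, 0.148 and 0.337, across genes), so a fit with the number as a block was made too. What libraries of the same number share is not given in the sources used here. DESeq2 1.42.0, limma 3.58.1 (voom), other scalings and filters and leaving out libraries were alternatives. Replicates of a genotype differed by more than sampling noise. CPM use the TMM factors, and errors are SDs. Floors cover counting error only. GENCODE M21, holding 98.4% of the symbols, gave positions and lengths, and RefSeq promoters (GRCm38.p6) were found for 7 of the 10 genes. Named genes were the 10 members, in each functional group up to 2 genes with the largest fold change among those passing, and Aco1, Ireb2, Hmox1, Mtf1 and Slc30a1, less 1 gene that is not reported here. The members and lists were chosen with earlier results of these data known.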

Additional observations from a re-analysis of the deposited data

How the results depend on the processing

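Tfrc was lower at an adjusted p under 0.05 in every alternative run except the stricter thresholds. The members had 1 gene lower by genotype alone. That count was 2 under upper-quartile scaling, 3 without a filter on low counts, 1 to 3 when 1 library was left out, 6 with the replicate block (5 with RLE scaling, 6 with upper-quartile scaling, 5 in DESeq2, 6 in limma-voom, 3 to 7 when both libraries of a number were left out, 4 being without replicate 3, a fit that leaves 1 residual degree of freedom) and 0 at FDR under 0.01 with a log2 fold change past 1. It was 0 higher in each of these. Without the filter, Slc40a1 (adjusted p = 5.43e-04) and Mt2 (9.29e-04) were also lower. The block changed the calls of Slc40a1, Slc39a14, Ftl1, Mt1, Mt2 and Hmox1, all lower, and of Pcbp1 and Bdh2, both higher. It changed the call of no other named gene of metal handling. Alternatives with the block beyond the plain one were added after seeing the data. The other listed genes had 10 higher (5 to 10 with 1 library left out, 1 by the stricter thresholds) and 9 lower (7 to 11, 1 by the stricter thresholds, 24 with the block and upper-quartile scaling, 11 to 15 with the block and both libraries of a number left out, 15 being without replicate 1). All genes had 2470 higher and 2604 lower, 2095 and 3356 under upper-quartile scaling, and 460 and 409 by the stricter thresholds. With the block and upper-quartile scaling 4640 were lower, and upper-quartile scaling moved the median log2 fold change from -0.024 to -0.088. Over all genes, 2852 were lower with no filter and 1873 to 2720 with 1 library left out. With the block 3615 were lower, 3342 with RLE scaling, 2354 in DESeq2 and 3584 in limma-voom. Leaving out both libraries of a number gave 2675 to 3762 lower with the block. The counts of members lower are to be read beside these. Among named genes, signs turned for 4 with values near 0. These were Slc11a1 (-0.016 under upper-quartile scaling with or without the block), Slc11a2 (0.031 without PP2AcWT replicate 3, 0.018 with the block and no replicate 3), Ireb2 (-0.033 under upper-quartile scaling with or without the block, -0.0083 without PP2AcKO replicate 1, -0.013 without PP2AcWT replicate 2) and Fth1 (0.00696 with RLE scaling or DESeq2, 0.011 with the block in either, 0.017 and 0.044 with the block and no replicate 2 or 3, 0.018 and 0.029 without PP2AcWT replicate 2 or 3). Without PP2AcWT replicate 1 the values at the other end were -0.10 (Slc11a2), -0.086 (Fth1) and 0.097 (Ireb2). The cause was not tested. Depth limits Lcn2, which no fit with a filter could test.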
